A study of Mus musculus with 32 samples.

Results

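The genes described here encode the proteasome, the protease complex that degrades ubiquitin-tagged proteins, together with its inducible subunits, caps and assembly chaperones. They were chosen by symbol: every measured gene whose symbol consists of Psm, a letter from a to g and digits. This gave 47 genes of the 19505 gene symbols in the series. Where a symbol has several rows the rule keeps the brightest one on average, but each of the 47 symbols had 1 row, so that step decided nothing. The gene family itself was chosen with earlier results of these data known. Of these genes, 30 encode constitutive subunits of the 20S core and the 19S particle, and 5 form the inducible set, Psmb8, Psmb9, Psmb10, Psme1 and Psme2. Psmb5, the constitutive partner of Psmb8, is not analysed here, because no row of the annotation used carried its symbol.

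Expression was measured on 32 arrays of a Clariom D type, 1 per sample, in skin of the inbred dermatitis-prone NC/Nga mouse. The groups were HDM ear, sham ear, HDM back skin and sham back skin, with 8 mice in each. All mice share the NC/Nga background, HDM animals had the dermatitis induced by HDM that the series is named for, and sham animals carry the label sham. The labels do not spell out HDM, describe the sham procedure, or give age, sex or time. Each sample was an 8 mm punch of ear or dorsal skin, kept in RNAlater for 18 hours or longer, and the arrays received 100 ng of biotin-labelled RNA. The same mouse numbers are used for ear and back skin, and whether equal numbers mark 1 animal is not stated.

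In the 20S core, rings of alpha subunits form the gate and rings of beta subunits hold the proteolytic sites. The 19S particle, made of ATPases (Psmc genes) and non-ATPase subunits (Psmd genes), binds ubiquitinated proteins, unfolds them and feeds them into the core. In leukocytes, and in other cells exposed to interferon gamma, Psmb9, Psmb10 and Psmb8 take the places of Psmb6, Psmb7 and Psmb5. The resulting immunoproteasome yields peptides suited to display on MHC class I molecules, and the PA28 cap made of Psme1 and Psme2 opens the core without the 19S particle.

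Values are log2 expression, and the median of the negative control probes of an array, between 4.43 and 5.38, was taken as background. On all 32 arrays, 41 of the 47 genes lay above it. Psma8 and Psmb11 were above it on 0 arrays, Psmg3 only on 1 HDM ear and 1 HDM back array, Psmb9 on 6 and Psmb10 on 7 of 8 sham ear arrays, and Psmg4 on 7 of 8 sham back arrays. Arrays correlated with their group at 0.975 to 0.994. In sham back skin, mice 1 and 2 had the lowest hair follicle means and the highest leukocyte means. Their mean over 4 hair follicle markers was 10.93 and 15.23, against 16.08 to 18.11 in the other 6, so mouse 2 lay much closer to these than mouse 1. Their mean over 4 leukocyte markers was 11.84 and 11.79, against 9.77 to 11.11. Keratinocyte markers averaged between 18.47 and 19.32 on every array, but single markers differed more: Krt1 averaged 17.32 in sham ear and 19.14 in sham back skin. In bulk skin, fewer cells of a type and less RNA per cell cannot be told apart.

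Promoter windows are shown for the inducible catalytic subunits, which had the largest differences between ear and back skin among the 47 genes, for Psme1, and for Psmb6 as the constitutive partner of Psmb9. Each run gives the 250 bases before the RefSeq start site and the first 30 bases after it, in GRCm38.p6, 5′ to 3′ on the gene's strand. Capitals mark a match, on either strand, to 1 of 4 motifs: the interferon response core (2 copies of GAAA with 2 bases of any kind between them), the gamma-activated site TTCNNNGAA, the antioxidant response core TGACNNNGC and the CCAAT box. Psmb8 lies at chr17:34197945-34198224 on the plus strand, Psmb9 at chr17:34187301-34187580 on the minus strand, Psmb10 at chr8:105938363-105938642 on the minus strand, Psme1 at chr14:55578244-55578523 on the plus strand and Psmb6 at chr11:70525107-70525386 on the plus strand.
Psmb8: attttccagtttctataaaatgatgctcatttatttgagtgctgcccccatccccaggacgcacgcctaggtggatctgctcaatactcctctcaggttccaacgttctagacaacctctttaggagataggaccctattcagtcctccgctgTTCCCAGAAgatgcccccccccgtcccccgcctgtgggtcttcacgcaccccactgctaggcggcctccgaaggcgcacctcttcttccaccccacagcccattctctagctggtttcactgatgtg
Psmb9: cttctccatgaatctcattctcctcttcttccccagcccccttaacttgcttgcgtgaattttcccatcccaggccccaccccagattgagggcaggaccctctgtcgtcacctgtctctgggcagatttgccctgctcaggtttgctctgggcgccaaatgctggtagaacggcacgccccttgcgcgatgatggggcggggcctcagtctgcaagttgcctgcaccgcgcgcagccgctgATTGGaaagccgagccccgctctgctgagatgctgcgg
Psmb10: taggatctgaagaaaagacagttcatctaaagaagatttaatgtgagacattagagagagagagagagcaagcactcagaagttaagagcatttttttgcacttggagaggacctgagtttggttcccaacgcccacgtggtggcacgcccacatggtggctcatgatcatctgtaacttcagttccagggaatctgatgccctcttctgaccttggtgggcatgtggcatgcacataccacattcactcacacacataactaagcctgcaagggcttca
Psme1: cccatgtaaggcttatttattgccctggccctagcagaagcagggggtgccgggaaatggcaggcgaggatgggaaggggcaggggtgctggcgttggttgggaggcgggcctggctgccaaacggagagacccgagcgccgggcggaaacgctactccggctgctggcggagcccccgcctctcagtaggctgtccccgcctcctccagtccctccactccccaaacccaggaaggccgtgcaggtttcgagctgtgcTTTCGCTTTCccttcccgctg
Psmb6: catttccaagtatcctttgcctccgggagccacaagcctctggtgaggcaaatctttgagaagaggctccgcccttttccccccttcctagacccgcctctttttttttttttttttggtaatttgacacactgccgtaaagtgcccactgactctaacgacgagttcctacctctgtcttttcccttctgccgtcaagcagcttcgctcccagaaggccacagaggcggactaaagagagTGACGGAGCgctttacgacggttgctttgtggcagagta

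In these windows Psmb8 held a gamma-activated site from position -97 relative to the start, Psmb9 a CCAAT box from -8, Psme1 an interferon response core from 10, Psmb6 an antioxidant response core from -9, and Psmb10 none of the 4. The matches of Psmb9 and Psme1 read on the opposite strand and are printed as their reverse complement, and no window printed held more than 1 match, so none overlapped. The full Psmb9 window shares 275 of its 300 bases with the window of Tap1, a peptide transporter gene on the opposite strand of chromosome 17. RefSeq windows were found for 39 of the 47 genes (42 windows). The interferon response core was present in 11.9% of these 42 windows and in 3.44% of all 32851 windows, the gamma-activated site in 7.14% and 8.3%, the antioxidant response core in 11.9% and 12.4%, and the CCAAT box in 33.3% and 37.4%. Besides Psme1, the genes with an interferon response core were Psmb3, Psmd4, Psmd9 and Psmg4, none of them in the inducible set. In that set the core was present in 1 of 6 windows. Neither window of Psme2, which is not printed, held any of the 4 motifs. A match is a string of letters and not a shown binding site.

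In ear, 36 of the 47 genes were higher in HDM than in sham mice and 1, Psme4, was lower, at an adjusted p under 0.05 (limma, Benjamini-Hochberg over 22206 rows). Among all rows, 16.4% were called higher and 15.5% lower. The median difference was 0.69 over the 47 genes, 0.74 over the constitutive subunits and -0.02 over all rows. Groups did not overlap, with HDM ear above, for 13 of the 47 genes and for 4.99% of all rows.

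In back skin, the genes that rose were all constitutive: 17 of the 47 were higher in HDM than in sham back skin and 0 were lower, where 6.18% of all rows were called higher and 8.56% lower. The median difference was 0.32 over the 47 genes, 0.43 over the 30 constitutive subunits and 0.01 over all rows. All arrays of HDM back skin lay above all arrays of sham back skin for 7 of the 47 genes, against 1.83% of all rows. Without sham back mice 1 and 2, 12 genes were called higher. The 7 genes without overlap were Psma1, Psma6, Psmb6, Psmc3, Psmc4, Psmd7 and Psmd13. Of the 17 genes called in back skin, 17 were also called higher in ear, which is 47.2% of the ear calls and 100% of the back skin calls. Among all rows called higher, 866 were shared, 23.8% of the ear calls and 63.1% of the back skin calls.

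**Figure D1:**
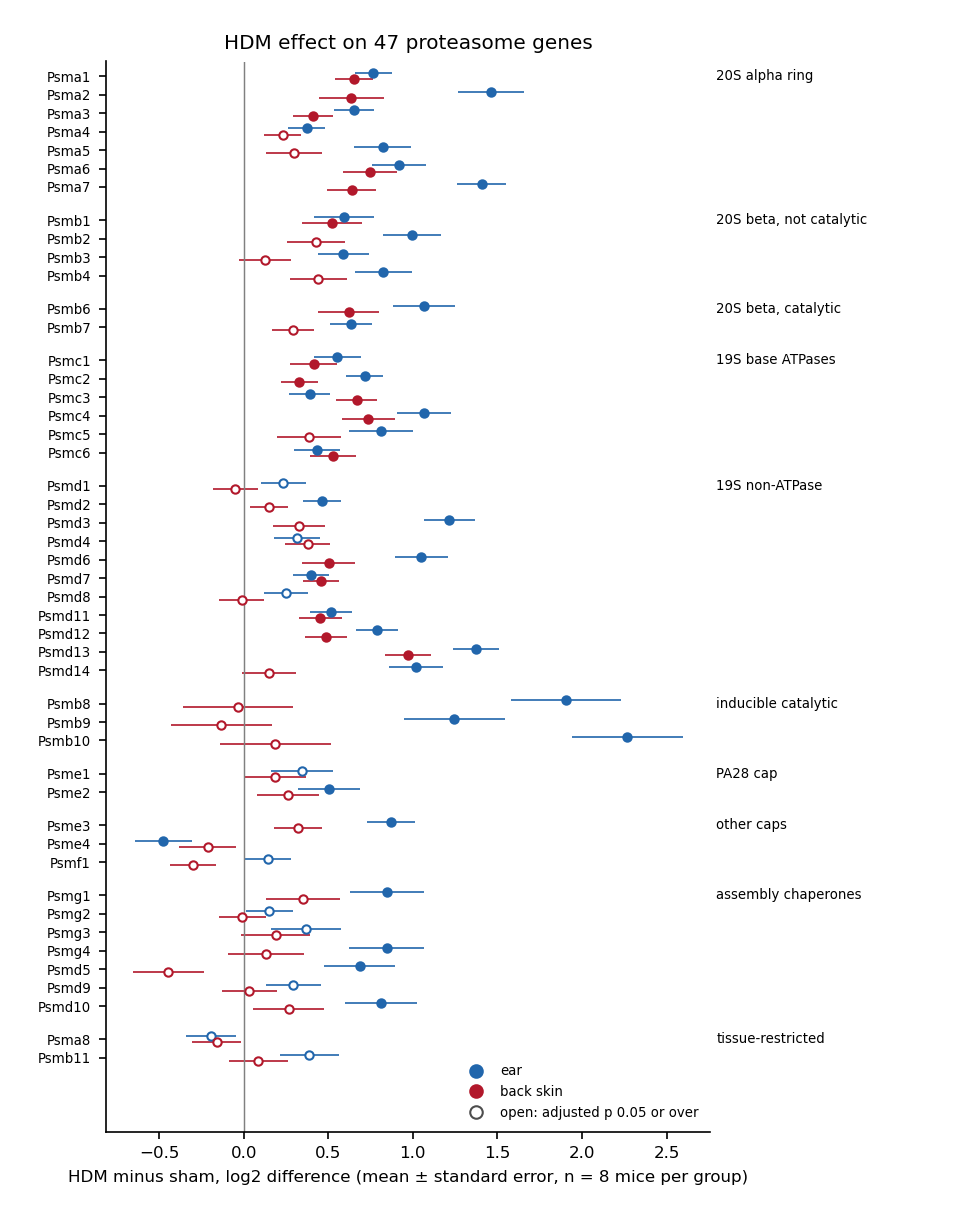
HDM minus sham difference in log2 expression for each of the 47 genes (points, mean difference; bars, standard error; 8 mice per group), by subunit class, in ear (blue) and back skin (red); filled points have an adjusted p under 0.05. Constitutive subunits lie to the right of 0 at both sites, except Psmd1 and Psmd8 in back skin, while Psmb8, Psmb9 and Psmb10 lie between 1.25 and 2.27 in ear and between -0.13 and 0.19 in back skin.

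The alpha ring, which gates entry to the core, rose as 7 of 7 genes in ear and 5 of 7 in back skin. In ear the largest alpha ring difference was that of Psma2. It ranged from 12.1 to 13.65 in HDM ear (median 12.91), against 10.75 to 11.79 in sham ear (median 11.53). The groups did not overlap, and the difference of 1.47 ± 0.19 (standard error, adjusted p = 8.8e-07) is a 2.76-fold one on this scale. Psma7 was next, at 12.18 to 13.12 in HDM ear (median 12.64), against 10.94 to 11.45 in sham ear (median 11.25), again without overlap (1.41 ± 0.14, adjusted p = 1.21e-08). Psma6 was between 13.19 and 13.76 in HDM back skin (median 13.58), against 12.49 to 13.16 in sham back skin (median 12.87). All HDM values lay above all sham values there, with a difference of 0.75 ± 0.16 (adjusted p = 0.00126). Psma2 and Psma7 were also higher there, by 0.64 each, and Psma4 had the smallest alpha ring difference at both sites, 0.37 in ear (adjusted p = 0.00808) and 0.23 in back skin (adjusted p = 0.16).

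Of the non-catalytic beta genes, all 4 were called in ear, from 0.59 for Psmb3 to 0.99 for Psmb2, and Psmb1 alone was called in back skin, with a difference of 0.52 ± 0.18 (adjusted p = 0.043). The catalytic subunit Psmb6 was between 12.53 and 14 in HDM ear (median 13.35), against 11.9 to 12.68 in sham ear (median 12.02), with overlap in the lowest HDM mouse, mouse 3 (1.07 ± 0.18, adjusted p = 2.67e-05). In back skin it ranged from 12.32 to 12.76 in HDM mice (median 12.43), against 11.1 to 12.14 in sham mice (median 11.98). These groups did not overlap (0.62 ± 0.18, adjusted p = 0.018). Psmb7, the other constitutive catalytic subunit measured, was called only in ear, at 0.64 ± 0.12 (adjusted p = 0.000154), and had a difference of 0.29 in back skin (adjusted p = 0.12).

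The ATPases of the 19S base rose as 6 of 6 genes in ear and 5 of 6 in back skin. Psmc4 differed most at both sites. Its range was 11.5 to 12.58 in HDM ear and 10.3 to 11.37 in sham ear, without overlap (1.07 ± 0.16, adjusted p = 4.19e-06). It was between 11.25 and 11.84 in HDM back skin and between 10.42 and 11.19 in sham back skin, again without overlap (0.74 ± 0.16, adjusted p = 0.00143). Psmc3 differed by 0.39 in ear and, numerically more, by 0.67 in back skin, and the difference between sites was not called (adjusted p = 0.33).

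Non-ATPase subunits of the 19S particle include ubiquitin receptors, scaffold proteins and the deubiquitinase Psmd14. Of 11 such genes, 8 rose in ear and 5 in back skin. Psmd13, a lid subunit, ranged from 13.92 to 14.86 (median 14.59) in HDM ear, against 12.79 to 13.25 in sham ear (median 13.13). In back skin, where it had the largest difference of the 47 genes, it ranged from 13.34 to 13.93 in HDM mice (median 13.66), against 12.21 to 12.91 in sham mice (median 12.78). Neither pair overlapped, with differences of 1.38 ± 0.14 (adjusted p = 6.21e-09) in ear and 0.97 ± 0.14 (adjusted p = 5.62e-06) in back skin. Psmd3 (1.22 ± 0.15), Psmd6 (1.05 ± 0.16) and Psmd14 (1.02 ± 0.16) followed in ear, each without overlap. Psmd1, Psmd4 and Psmd8 were called at neither site, and Psmd1, the scaffold of the base, had differences of 0.24 in ear and -0.05 in back skin (adjusted p = 0.19 and 0.86).

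Some calls in back skin rested on single arrays. Without sham back mouse 7, Psmb6 had a difference of 0.51 (adjusted p = 0.053). Psma2 was lost without sham back mouse 1 or 7 (0.55 to 0.57, adjusted p = 0.054 to 0.064), and Psmd6 without sham back mouse 1, HDM back mouse 2 or HDM back mouse 5 (0.41 to 0.47). Psmb1, Psmc1 and Psmc2 were lost without any of 9, 8 and 11 arrays, with differences of 0.46 to 0.53, 0.36 to 0.42 and 0.29 to 0.33. In ear, quantile normalization ended the calls of Psma4 (0.24), Psmb1 (0.48), Psmc3 (0.24) and Psmc6 (0.31), with adjusted p of 0.11, 0.051, 0.15 and 0.085. With array medians made equal, 7 more genes were called in back skin: Psmb4 (0.57), Psmb2 (0.55), Psmd4 (0.50), Psmd3 (0.45), Psme3 (0.45), Psmb7 (0.42) and Psma4 (0.36).

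The inducible catalytic subunits behaved differently at the 2 sites. Psmb8, Psmb9 and Psmb10 were all higher in HDM than in sham ear, and 0 of the 3 were called in back skin. Psmb8 ranged from 8.23 to 10.3 in HDM ear (median 9.44), against 6.56 to 8.18 in sham ear (median 7.41), without overlap. The difference was 1.91 ± 0.32 (adjusted p = 2.55e-05), or 3.75-fold. Psmb10 ranged from 6.68 to 9.1 in HDM ear (median 7.75), against 4.35 to 6.53 in sham ear (median 5.69), also without overlap. With 2.27 ± 0.33 (4.82-fold, adjusted p = 2.77e-06) it had the largest difference of the 47 genes in ear. Psmb9 ranged from 5.69 to 7.87 in HDM ear (median 7.07), against 4.96 to 6.2 in sham ear (median 5.83), and the groups overlapped in HDM ear mice 3 and 8 (1.25 ± 0.30, adjusted p = 0.00133).

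In back skin the same 3 genes had differences of -0.03 ± 0.32 for Psmb8, -0.13 ± 0.30 for Psmb9 and 0.19 ± 0.33 for Psmb10 (adjusted p = 0.96, 0.83 and 0.77). Psmb8 ranged from 8 to 8.83 in HDM back skin (median 8.46), against 7.4 to 9.87 in sham back skin (median 8.25). The sham range enclosed the HDM range. The same held for Psmb9, at 5.93 to 6.97 in HDM back skin and 5.57 to 8.06 in sham back skin, and for Psmb10, at 6.22 to 7.4 in HDM back skin and 5.73 to 7.7 in sham back skin. Mice 1, 2 and 5 were the high sham mice: averaged over the 3 genes they had 8.04, 8.39 and 7.61, against 6.50 to 6.83 in the other 5. Without mice 1 and 2 the differences in back skin were 0.38 for Psmb8, 0.14 for Psmb9 and 0.53 for Psmb10, and none of the 3 was called (adjusted p = 0.45, 0.80 and 0.31).

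**Figure D2:**
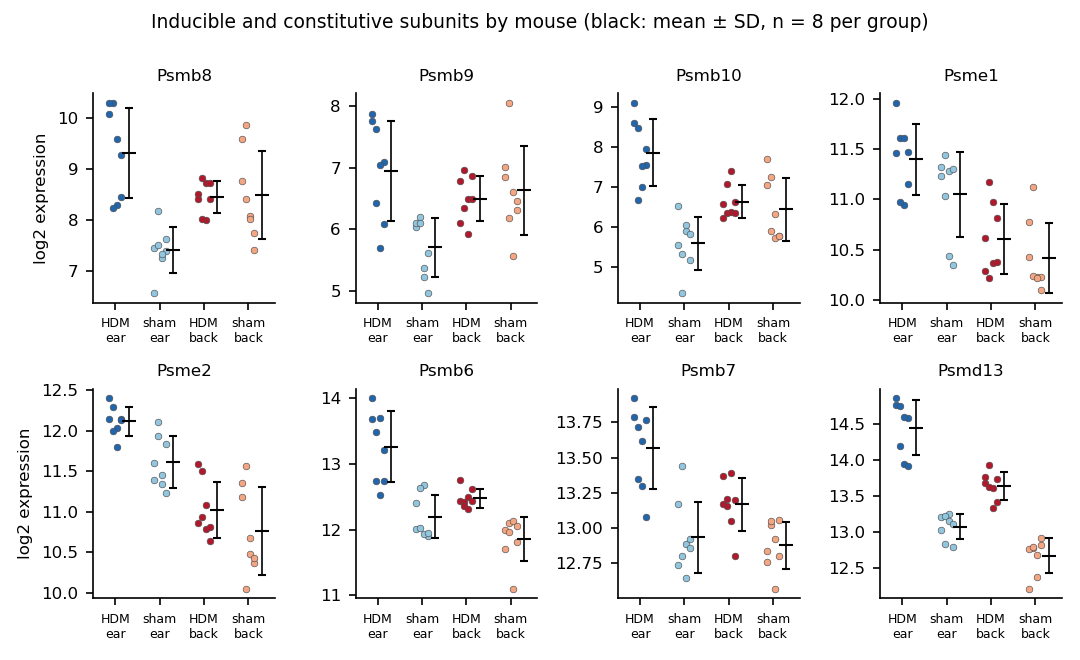
Log2 expression of the 5 inducible genes and of the constitutive Psmb6, Psmb7 and Psmd13 in each mouse (points), with the mean and SD of 8 mice beside them in black. Psmb8 and Psmb10 lie higher in all HDM ears than in any sham ear, and sham back skin spreads more widely than HDM back skin for Psmb8, Psmb9 and Psmb10.

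The effect of HDM was larger in ear than in back skin for all 3 inducible catalytic genes. The difference between sites was 2.08 ± 0.46 for Psmb10 (adjusted p = 0.00368), 1.94 ± 0.46 for Psmb8 (adjusted p = 0.00584) and 1.38 ± 0.42 for Psmb9 (adjusted p = 0.032). Without sham back mice 1 and 2, Psmb10 kept 1.74 (adjusted p = 0.012) and Psmb8 1.52 (adjusted p = 0.017), and Psmb9 was no longer called at 1.10 (adjusted p = 0.081). Psmb9 was also lost without any 1 of sham back mouse 2, HDM back mouse 7, sham ear mouse 4 or HDM ear mice 1, 2 and 5 (1.17 to 1.30, adjusted p = 0.050 to 0.057).

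Leukocyte markers also differed by group. All 4 markers (Ptprc, Laptm5, Coro1a and Cd53) were higher in HDM than in sham ear without overlap, 0 of 4 were called in back skin, and all 4 had a larger difference in ear than in back skin. Among all rows, 16.4% were called higher in ear, 4.99% were higher there without overlap, and 6.18% were called higher in back skin. A larger difference in ear was called for 6.77%. Ptprc, the pan-leukocyte phosphatase CD45, differed by 1.98 ± 0.38 in ear and -0.06 ± 0.38 in back skin. The other markers differed in back skin by -0.17 (Laptm5), 0.61 (Coro1a) and 0.755 (Cd53), so their signs were mixed. Ptprc was 13.87 and 13.67 in sham back mice 1 and 2, and the markers were not recomputed without these mice. The mean of the 4 markers ranged from 11.09 to 14.24 in HDM ear, against 9.36 to 9.82 in sham ear, and from 10.51 to 11.59 in HDM back skin, against 9.77 to 11.84 in sham back skin. Sham back mice 1 and 2 had the highest marker means of their group. Sham back mouse 5, with a subunit mean of 7.61, had a marker mean of 10.42, and sham back mouse 7, with a subunit mean of 6.78, had a marker mean of 11.11. Among HDM ears, mice 1, 2, 5 and 7 had marker means of 13.55, 14.24, 13.2 and 13.11 and means over Psmb8, Psmb9 and Psmb10 of 8.81, 8.8, 9.09 and 8.05. Mice 3, 4, 6 and 8 had marker means of 11.09 to 11.77 and subunit means of 7.00, 7.97, 7.11 and 7.49. Macrophage markers were called as 3 of 3 in ear and 0 of 3 in back skin, and T and NK markers as 2 of 5 at each site. Gzmb, a cytotoxic granule protease, and Cd8a, a T cell coreceptor chain, were those called at each site. Gzmb was higher by 1.43 in HDM back skin (adjusted p = 0.047) and was called higher in HDM ear without overlap (adjusted p = 7.8e-07), where its sham group was below background. Cd8a was called higher at both sites (adjusted p = 0.0021 in ear and 0.00061 in back skin, the second without overlap), with both sham groups below background. Cd3e, a defining T cell marker, differed by -0.40 in ear and -0.25 in back skin (adjusted p = 0.30 and 0.61). The part of leukocyte content in the change of the inducible subunits was not tested.

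**Figure D3:**
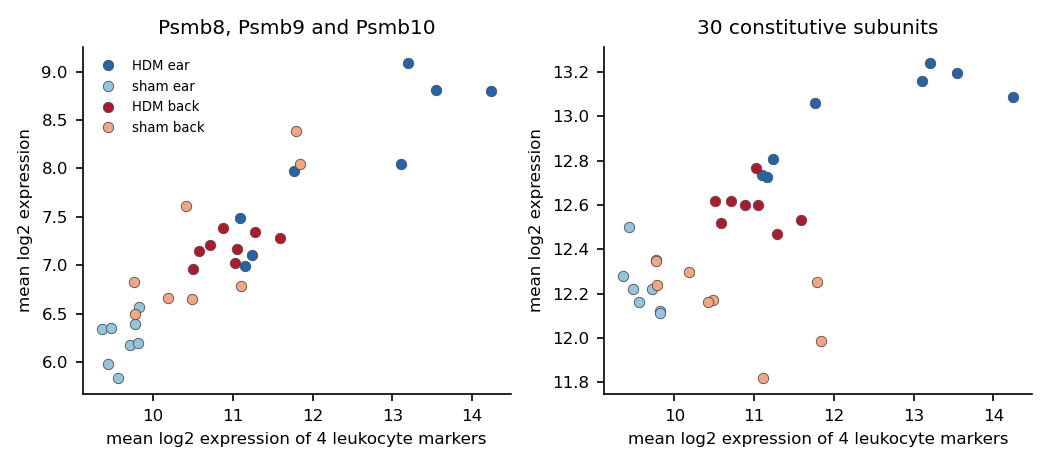
Mean log2 expression of Psmb8, Psmb9 and Psmb10 (left) and of the 30 constitutive subunits (right) against the mean of 4 leukocyte markers, 1 point per array and 8 arrays per group. Sham back mice 1 and 2, at marker means of 11.84 and 11.79, lie among the HDM ears on the left and, on the right, at the height of the other sham back arrays.

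The mean over the 30 constitutive subunits ranged from 12.73 to 13.24 in HDM ear, against 12.11 to 12.50 in sham ear, and from 12.47 to 12.77 in HDM back skin, against 11.82 to 12.35 in sham back skin. In neither tissue did the groups overlap. Sham back mice 1 and 2, high for leukocyte markers and inducible subunits, had constitutive means of 11.99 and 12.25, inside the range of the other 6. Within HDM ear, mice 1, 2, 5 and 7 again had the highest means, 13.09 to 13.24, against 12.73 to 13.06 in mice 3, 4, 6 and 8. Muscle markers fell in HDM ear as 4 of 4, with a mean of 9.71 to 12.36 in HDM ear and 13.07 to 15.22 in sham ear, and 0 of 4 were called in back skin. Adipocyte markers fell as 4 of 4 in ear and 3 of 4 in back skin, and fibroblast markers as 2 of 3 in ear (Col1a1 -0.75, Col1a2 -0.88) and 0 of 3 in back skin. Among all rows, 15.5% were called lower in ear and 8.56% in back skin, and 16.4% and 6.18% higher. Of 5 keratinocyte markers, 2 were higher in HDM ear and 1 in HDM back skin, where 1 was lower. Krt14, a basal layer keratin, was higher without overlap at both sites, by 0.41 in HDM ear and 1.12 in HDM back skin, and Krt1 by 2.06 in HDM ear. The part of these tissue shifts in the rise of constitutive subunits was not tested.

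Differences taken within an array show how far the inducible subunits shifted beside their constitutive partners. Psmb10 minus Psmb7 averaged -5.71 ± 0.70 in HDM ear and -7.35 ± 0.80 in sham ear (SD, n = 8 each), a shift of 1.63. In back skin it averaged -6.55 ± 0.50 in HDM and -6.44 ± 0.79 in sham mice, a shift of -0.11. Psmb9 minus Psmb6 shifted by only 0.18 in ear, at -6.31 ± 0.37 in HDM ear and -6.49 ± 0.49 in sham ear, where Psmb9 rose by 1.25 and Psmb6 by 1.07. In back skin it shifted by -0.75, at -5.98 ± 0.39 in HDM and -5.23 ± 0.80 in sham mice. The mean of the 3 inducible catalytic genes minus the mean of the 30 constitutive subunits shifted by 1.05 in ear (-4.96 ± 0.62 in HDM, -6.01 ± 0.29 in sham) and by -0.42 in back skin (-5.40 ± 0.21 in HDM, -4.98 ± 0.76 in sham). As a level, this HDM ear mean was near that of sham back skin. The HDM ear mean of Psmb9 minus Psmb6 lay below both back skin means, and that of Psmb10 minus Psmb7 above both. With Psme1 and Psme2 included, the inducible set of 5 shifted by 0.50 in ear and -0.34 in back skin. The shifts in back skin depended on single sham mice, in settings chosen after the data were seen. That of the inducible catalytic mean was -0.28 without sham back mouse 1, -0.26 without mouse 2 and -0.07 without both, and that of the set of 5 was -0.23, -0.20 and -0.05. Without both mice Psmb9 minus Psmb6 shifted by -0.49 and Psmb10 minus Psmb7 by 0.22. The shift of Psmb10 minus Psmb7 was also above 0, at 0.08, without mouse 1 alone, and between -0.23 and 0.0007 without any other single mouse. The groups overlapped in every such measure. These are descriptions without a test, and the zero of such a difference has no meaning because probes differ in brightness.

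**Figure D4:**
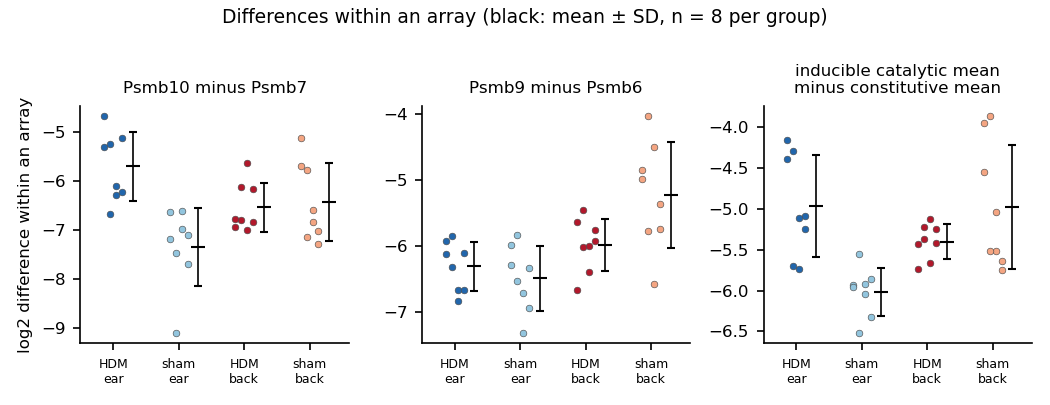
Differences in log2 expression within an array for Psmb10 minus Psmb7, Psmb9 minus Psmb6, and the mean of the inducible catalytic genes minus the mean of 30 constitutive subunits, by mouse (points) with mean and SD of 8 mice in black. HDM ear lies above sham ear in the first and last panels, by 1.63 and 1.05 on average, and only by 0.18 in the middle one.

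The PA28 cap changed little beside the inducible catalytic subunits. Psme2 ranged from 11.8 to 12.4 in HDM ear (median 12.14), against 11.23 to 12.11 in sham ear (median 11.53), with a difference of 0.50 ± 0.18 (adjusted p = 0.033). That call was lost without any 1 of sham ear mice 1, 3, 7 and 8 or HDM ear mice 1, 2 and 5 (0.45 to 0.50, adjusted p = 0.050 to 0.072). Psme1 differed by 0.35 ± 0.18 in ear (adjusted p = 0.16), and in back skin the differences were 0.19 for Psme1 and 0.26 for Psme2 (adjusted p = 0.56 and 0.38). Psme2b, a retrogene copy that may share probes with Psme2, differed by 0.56 in ear and -0.33 in back skin (adjusted p = 0.058 and 0.38).

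Other caps went in different directions in ear. Psme3 encodes the PA28 gamma cap found mainly in the nucleus. It was between 13.82 and 14.4 in HDM ear (median 13.97), against 12.69 to 13.61 in sham ear (median 13.16), without overlap (0.87 ± 0.14, adjusted p = 1.44e-05). Psme4 encodes PA200, a nuclear cap, and was the 1 gene that fell. It was between 12.44 and 13.87 in HDM ear (median 13.17), against 13.11 to 13.99 in sham ear (median 13.60), with overlap (-0.48 ± 0.17, adjusted p = 0.030). Without any 1 of sham ear mice 1, 7 and 8 or HDM ear mice 1, 2 and 5 the fall was not called (-0.44 to -0.38, adjusted p = 0.057 to 0.086). HDM ear mice 1, 2 and 5 had the 3 lowest Psme4 values of their group, 12.85, 12.45 and 12.44, and the 3 highest inducible catalytic means. Psmf1, which encodes the inhibitor PI31, was called in neither tissue (0.15 in ear, -0.30 in back skin; adjusted p = 0.47 and 0.14).

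Assembly chaperones, which build the core and the base, rose as 4 of 7 genes in ear and 0 of 7 in back skin. Among all rows, 16.4% were called higher in ear and 6.18% in back skin, so the back skin count is near that share. In ear the called genes were Psmg1 (0.85 ± 0.22), Psmg4 (0.85 ± 0.22), Psmd10 (0.81 ± 0.21) and Psmd5 (0.69 ± 0.21). Psmg2, Psmg3 and Psmd9 had ear differences of 0.15, 0.37 and 0.29 (adjusted p = 0.46, 0.19 and 0.19). Psmd5 lay at 6.87 to 9.05 in HDM back skin (median 8.33), against 8.27 to 9.19 in sham back skin (median 8.74). That difference of -0.45 ± 0.21 was not called (adjusted p = 0.16), and HDM back mouse 2 gave the lowest value. The tissue-restricted subunits, testis-specific Psma8 and thymus-specific Psmb11, stayed below background in every group, with means of 3.31 to 3.82, and have no fold.

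Across the 47 genes the effect of HDM was larger in ear than in back skin for 7 and smaller for 0, where 6.77% of all rows were called larger and 3.37% smaller. Beside the inducible catalytic genes these were Psmd5 (1.13 ± 0.30, adjusted p = 0.012), Psmd3 (0.89 ± 0.22, adjusted p = 0.00710), Psmd14 (0.87 ± 0.23, adjusted p = 0.012) and Psma7 (0.77 ± 0.20, adjusted p = 0.014). The estimate was positive for 26 of 30 constitutive subunits, with a median of 0.32, but only 3 of the 30 were called. Psma2 missed the threshold at 0.83 ± 0.28 (adjusted p = 0.051) and was called without any 1 of sham back mice 1 and 7, sham ear mouse 6 or HDM ear mice 3, 6 and 8 (adjusted p = 0.019 to 0.042).

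Levels in sham skin differed by site for some of these genes, as for many rows of the array. Of the 47 genes, 11 were higher and 6 lower in sham ear than in sham back skin, where 15.6% and 14.1% of all rows were called. The groups overlapped for all 47 genes. The inducible set split: the PA28 genes were higher in sham ear, Psme2 by 0.85 ± 0.18 (adjusted p = 0.000473) and Psme1 by 0.63 ± 0.18 (adjusted p = 0.00818). The inducible catalytic genes were lower in sham ear, Psmb8 by -1.07 ± 0.32 (adjusted p = 0.011), Psmb9 by -0.93 ± 0.30 (adjusted p = 0.016) and Psmb10 by -0.85 ± 0.33 (adjusted p = 0.049). Without sham back mice 1 and 2 these 3 differences were -0.66, -0.65 and -0.50 and none was called (adjusted p = 0.10, 0.095 and 0.27), while Psme1 and Psme2 kept 0.75 and 1.05. Psmb10 was also lost without any of 19 single arrays (-0.88 to -0.67). Leukocyte markers were lower in sham ear for 3 of 4, Ptprc by -1.16 ± 0.38, hair follicle and adipocyte markers for 4 of 4 each, and muscle markers for 2 of 4. Sham back mice 1 and 2 had the highest leukocyte means of their group, and no marker was recomputed without them. Fibroblast markers were higher in sham ear for 3 of 3, Col1a1 by 1.27 and Col1a2 by 0.99. Of 5 keratinocyte markers, Krt14 was higher in sham ear by 0.595 and Krt1 lower by -1.82, the second without overlap. The part of these markers was not tested.

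Other calls between sham ear and sham back skin were spread over the classes. Psma6 was higher in sham ear by 0.77 ± 0.16 (adjusted p = 0.000277), Psmb1 by 0.64 ± 0.18, Psmd9 by 0.56 ± 0.16, Psmf1 by 0.45 ± 0.14 and Psmc3 by 0.43 ± 0.12. Psmd1 was lower in sham ear by -0.51 ± 0.13 (adjusted p = 0.00280), Psmc2 by -0.45 ± 0.11 (adjusted p = 0.00184) and Psmd2 by -0.35 ± 0.11, the last not called without sham back mouse 6 (-0.27, adjusted p = 0.054). Psmd13 (0.41), Psmd4 (0.39), Psmc6 (0.38) and Psma4 (0.31) were higher in sham ear. Psmd13 lost its call without sham back mouse 1 (0.34, adjusted p = 0.057), and Psmd4, Psmc6 and Psma4 without any of 4, 7 and 7 arrays. The median over the 30 constitutive subunits was 0.12, against 0.04 over all rows.

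Spread between mice differed between the classes. For the inducible catalytic genes the median SD was 0.83 in HDM ear, 0.47 in sham ear, 0.37 in HDM back skin and 0.78 in sham back skin. For the constitutive subunits it was 0.28, 0.27, 0.19 and 0.27 in the same order. The errors of the fit pool the 4 groups, so those of Psmb8, Psmb9 and Psmb10 average narrow and wide groups.

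Among genes of class I presentation, 5 of 11 were higher in HDM than in sham ear and 0 of 11 were called in back skin. Among all rows, 16.4% were called higher in ear and 6.18% in back skin. A count of 0 in a list this short is near the back skin share. Without sham back mice 1 and 2, Erap1 was called higher there (0.46, adjusted p = 0.0496). Tapbp, a loading chaperone, was called lower there with dim rows left out (-0.49, adjusted p = 0.044) and without any 1 of sham back mice 4 and 8 or HDM back mouse 7 (-0.59 to -0.58, adjusted p = 0.020 to 0.024), and Tap1 without sham back mouse 4 (-0.72, adjusted p = 0.049). The endoplasmic reticulum chaperones Calr (1.30 ± 0.16) and Pdia3 (1.18 ± 0.15) had the largest differences in ear. Erap1, which trims peptides, differed by 0.84 ± 0.18, the light chain B2m by 0.77 ± 0.16, and the peptide transporter Tap1 by 0.70 ± 0.26 (adjusted p = 0.033). Tap1 was lost without any 1 of sham ear mice 3, 6 and 7 or HDM ear mice 1, 5 and 7 (0.58 to 0.68). It had the lowest value of this list in back skin, -0.59 ± 0.26 (adjusted p = 0.12), and differed between sites by 1.29 ± 0.36 (adjusted p = 0.019). Without sham back mice 1 and 2 the Tap1 difference between sites was 1.03 (adjusted p = 0.061). The heavy chains H2-K1 and H2-D1 had ear differences of 0.04 and 0.30 (adjusted p = 0.93 and 0.30). In sham skin, 4 of the 11 genes were lower in ear than in back skin and 0 were higher, against 14.1% and 15.6% of all rows. Calr averaged 16.36 in sham ear and 17.66 in HDM ear, against 17.99 in sham and 18.01 in HDM back skin. Pdia3 averaged 14.49, 15.67, 15.69 and 15.78 in the same order. For neither gene was the HDM ear mean above the back skin means.

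Among 7 interferon gamma pathway genes, the effect of HDM was called larger in ear for 4, against 6.77% of all rows. Transcripts were measured here, not signalling. Ifng itself was above background on 1 HDM ear and 1 sham back array only, with group means of 3.27 to 3.48. Of the 7 genes of its list, 5 were higher in HDM ear and 0 were called in back skin, against 16.4% and 6.18% of all rows called higher. The back skin count is near that share for so short a list. Irf1, a transcription factor that induces immunoproteasome genes, differed by 1.80 ± 0.33 in ear, Jak2 by 1.69 ± 0.24, Ifngr2 by 1.44 ± 0.18 and Ifngr1 by 1.22 ± 0.20. The fifth, Irf8, differed by 0.98 ± 0.38 (adjusted p = 0.048), a call lost without any of 23 single arrays (0.80 to 1.00). In back skin, Irf1 differed by 0.23 and Jak2 by 0.13 (adjusted p = 0.72 and 0.79), and the 7 genes ran from -0.32 for Irf8 to 0.39 for Ifngr2. Without sham back mice 1 and 2 the back skin differences were 0.57 for Irf1, 0.50 for Ifngr2, 0.45 for Jak1 and 0.38 for Jak2. They were 0.14 for Irf8, 0.05 for Ifng and 0.02 for Ifngr1, and none of the 7 was called. The difference between sites was called for Irf1 (1.58), Jak2 (1.56), Ifngr1 (1.40) and Ifngr2 (1.05). For Irf1 it was lost without HDM ear mouse 1 (1.45, adjusted p = 0.050) and without sham back mice 1 and 2 (1.24, adjusted p = 0.081). Ifngr2 averaged 10.3 in sham ear and 11.7 in HDM ear, against 11.4 in sham and 11.8 in HDM back skin. The HDM ear mean was above the HDM back mean for Irf1 (10.57 against 10.03), Jak2 (13.69 against 12.44) and Ifngr1 (12.48 against 10.93).

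Proteasome helpers rose as 6 of 8 genes in ear and 0 of 8 in back skin, against 16.4% and 6.18% of all rows. The back skin count is near that share for so short a list. Pomp, the maturation factor that the core needs for assembly, was the largest, at 1.33 ± 0.18 in ear (adjusted p = 1.37e-06) and 0.39 in back skin (adjusted p = 0.16). The deubiquitinases Uchl5 (0.93 ± 0.13) and Usp14 (0.82 ± 0.17), the ubiquitin shuttle Rad23b (0.76 ± 0.13), the small 19S subunit Sem1 (0.48 ± 0.18) and Akirin2 (0.35 ± 0.14), a factor for nuclear import of proteasomes, were also higher in HDM ear. Sem1 was lost without any of 7 and Akirin2 without any of 12 single arrays (0.39 to 0.48 and 0.30 to 0.36). Ecpas, a proteasome adaptor protein, fell in both tissues, with -0.57 ± 0.16 in ear and -0.49 ± 0.16 in back skin. The call in back skin was lost without any of 6 arrays (-0.48 to -0.39).

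Transcription factors of proteasome genes did not move as 1 group. Nfe2l1, which drives proteasome genes when proteasome activity is short, was lower by -1.20 ± 0.21 in HDM ear (adjusted p = 3.15e-05) and by -0.64 ± 0.21 in HDM back skin (adjusted p = 0.032). Every HDM array was below the sham mean at both sites, although the groups overlapped, and the call in back skin was lost without any of 7 arrays (-0.61 to -0.56). Nfe2l2, an oxidative stress factor, was higher in HDM back skin by 0.55 ± 0.18 (adjusted p = 0.041), lost without any of 10 arrays (0.47 to 0.56), and differed by 0.39 in ear (adjusted p = 0.11). Of the subunits that bind the CCAAT box, Nfyb was lower in HDM ear (-0.51 ± 0.17), Nfyc higher (0.48 ± 0.13), and Nfya was not called (-0.17). Nfyb was lost without sham ear mouse 6 or HDM ear mice 2 or 5 (-0.46 to -0.39). Of the ubiquitin-handling genes, the unfoldase Vcp was higher in HDM ear by 0.66 ± 0.17 (adjusted p = 0.00364), and its partners Ufd1 and Nploc4 differed by -0.01 and 0.24 (adjusted p = 0.99 and 0.17).

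**Figure D5:**
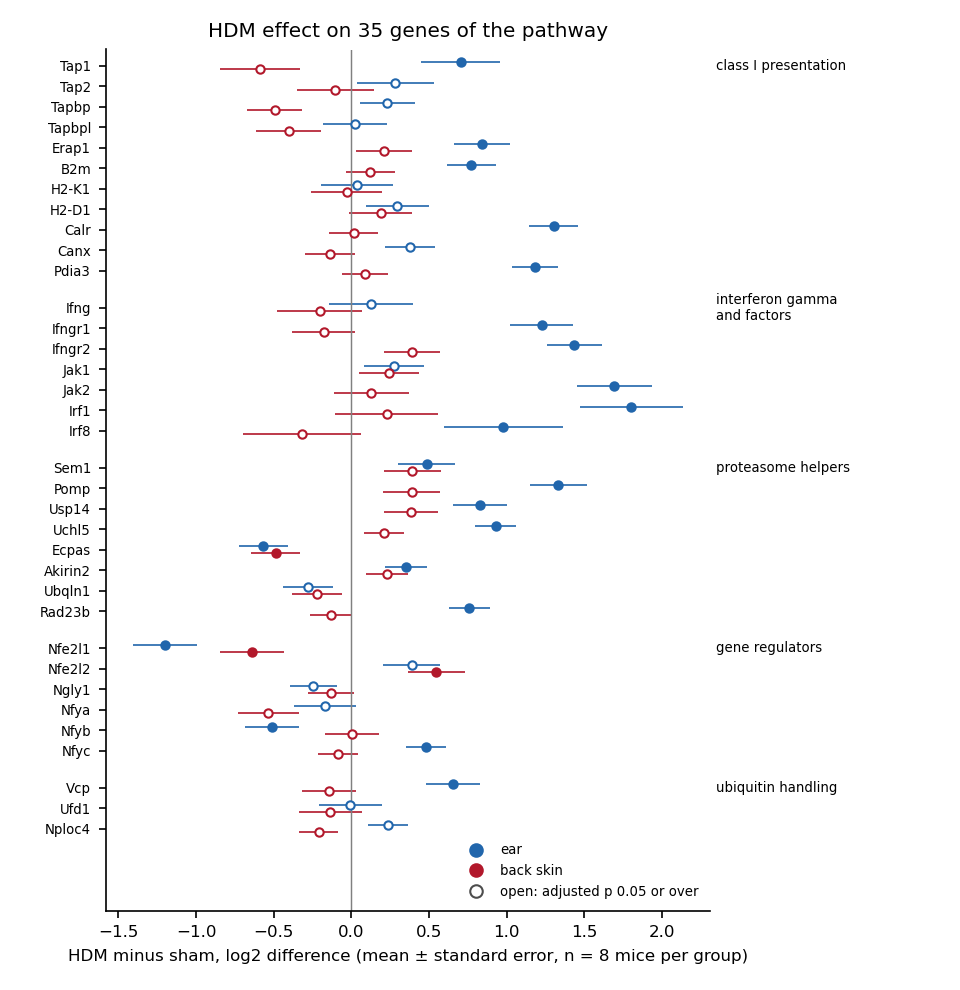
HDM minus sham difference in log2 expression of 35 pathway genes (points, mean difference; bars, standard error; 8 mice per group) in ear (blue) and back skin (red); filled points have an adjusted p under 0.05. In ear 18 genes are called higher and 3 lower, and in back skin 1 higher and 2 lower. The shares of all rows are 16.4% and 15.5% in ear and 6.18% and 8.56% in back skin.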

How the data were processed

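RNA of 32 skin samples was hybridised to single-channel arrays. The deposited values are log2 expression, which the authors made by RMA with the Transcriptome Analysis Console software, as named in the submitters' processing notes. No version, genome build or annotation release is stated in the labels. The values run from 1.71 to 19.93, a wide range for RMA, and whether they were rescaled could not be told, so folds hold only on this scale. Of 28846 rows, 6640 array controls were left out, and 22206 were tested. Group means of all 32 arrays were fitted with limma 3.58.1 in R 4.3.3 (lmFit, eBayes, two-sided, no block, 32.1 degrees of freedom), with Benjamini-Hochberg adjustment over all rows and a threshold of 0.05. Errors of differences are standard errors, others SD, with n = 8. Each p-value sets a group difference against the spread between these samples, pooled over the groups. The number of arrays limits the precision. The fit was tested on simulated data with independent normal noise and the same SD in all groups. Unequal group spreads and aberrant mice were not simulated. Members, gene lists and alternatives were chosen with earlier results of these data known. Named were the inducible set, their partners, caps and chaperones, the 8 other called members with the largest difference per comparison, extremes of each class, pathway genes and the first 2 markers of a list; Coro1a, Cd53, Cd8a, Gzmb, Krt1 and members whose call rested on single arrays were added after their values were seen. Genes of the lists without a row here are not analysed here. Promoter sequences are RefSeq's (GRCm38.p6).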

Additional observations from a re-analysis of the deposited data

Results flagged for a closer look

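Within groups of 8, the highest or lowest mouse was far from the rest for 15 of 328 groups examined, 7 of them among 188 groups of the proteasome genes. Chance alone gives about 1 in 20. Among proteasome genes these were Psma6 at 13.19 in HDM back mouse 6 (lowest), Psmb2 at 13.27 in HDM back mouse 1 (highest), Psmd9 at 8.45 in HDM back mouse 5 (highest) and at 7.21 in sham ear mouse 3 (lowest), Psmb6 at 11.1 in sham back mouse 7 (lowest), Psmd1 at 14.99 in sham back mouse 2 (highest) and Psmb11 at 3.86 in sham back mouse 8 (highest, below background). Among pathway genes they were Canx at 13.49, Ubqln1 at 11.88 (both lowest) and Sem1 at 15.28 (highest) in HDM back mouse 2, Usp14 at 9.9 in HDM back mouse 5 (lowest), Jak2 at 13.64 in sham back mouse 2 (highest), and Ifng at 4.81 in HDM ear mouse 5, 5.17 in sham back mouse 1 and 4.15 in sham ear mouse 4 (each highest).

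The effect of HDM in ear minus that in back skin passed the limma threshold for 19 genes. Among proteasome genes it was 2.08 for Psmb10, 1.94 for Psmb8, 1.38 for Psmb9, 1.13 for Psmd5, 0.89 for Psmd3, 0.87 for Psmd14 and 0.77 for Psma7. Among pathway genes it was 1.58 for Irf1, 1.56 for Jak2, 1.40 for Ifngr1, 1.29 for Tap1, 1.29 for Calr, 1.09 for Pdia3, 1.05 for Ifngr2, 0.94 for Pomp, 0.89 for Rad23b, 0.80 for Vcp, 0.72 for Uchl5 and 0.57 for Nfyc. In each case the larger effect was in ear, which compares changes and not levels. The Nfyc call was lost without any of 20 single arrays (0.51 to 0.58) and the Vcp call without any of 7 (0.75 to 0.77).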

How the results depend on the processing

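Results of the proteasome genes were recomputed under 40 alternatives, 32 of which left out 1 array each, apart from genes removed with dim rows and the site difference with only the compared groups; those of marker genes were not. No direction of a called result was reversed. The count of genes higher in HDM back skin, 17, ranged from 12 (without sham back mouse 1) to 19 over the arrays left out, and was 24 with array medians made equal, 13 with array weights and 12 without sham back mice 1 and 2. With 1 array left out, the ear counts ranged from 35 to 38 higher and from 0 to 1 lower, the site difference from 6 to 9, and sham ear against sham back skin from 8 to 12 higher and 5 to 8 lower. In ear, 31 were higher after quantile normalization, and 0 were lower with only ear arrays in the fit. With array medians made equal, the site difference had 5 genes, and sham ear against sham back skin 13 higher and 4 lower, with 3 lower without sham back mice 1 and 2. Making medians equal moved the median of all rows to 0.13 in back skin, -0.13 for the site difference and 0.16 for sham ear minus sham back, and the split of all calls in back skin to 2433 higher and 1392 lower, against 1372 and 1901. For the site difference the split became 1105 and 1310 (1106 and 1092 after quantile normalization), against 1503 and 748, and for sham ear minus sham back 5063 and 2462, against 3469 and 3124. Under that setting Psma7 and Psmb9 lost their site difference (0.64 and 1.26). Equal mouse numbers did not deviate together (correlations -0.11 to 0.14, 1 of 16 above 0.1). With agent and mouse number together as a random block (consensus correlation 0.015), 17 genes were called higher in back skin and 36 in ear. The site difference then had 8 genes. With the mouse number alone as a block, which joins HDM and sham mice, 15 were called higher in back skin and 36 in ear. The mean of several rows per symbol was not run, since each symbol had 1 row. Low signal limits Psmb9, Psmb10, Psmg3 and Psmg4, and in Psma8 and Psmb11 no change could be detected.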
